A study of Mus musculus with 4 samples.

Results

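To describe the granulocytes of the nasal mucosa that carry transcripts of the secondary granules of neutrophils, cells were selected by their own counts from 4 single-cell RNA-seq libraries. A cell was taken when it had at least 5 UMIs (unique molecular identifiers, each counting 1 captured transcript) of Camp, Ltf and Ngp together with at least 2 of these 3 genes detected, no UMI of Siglecf, fewer than 2 UMIs of Csf3, and no UMI of C1qa, C1qb, C1qc, Cd3e, Cd79a or Siglech. Among the 72320 cells kept after filtering (of 79132 in the files), 443 met this rule, 58, 86, 149 and 150 of them in the 4 libraries Vehicle, Vehicle-OVA, Ribavirin and Ribavirin-OVA. Values listed for 4 libraries keep this order throughout, called library order. These 443 cells are called members below. Because measured counts chose them, their Camp, Ltf and Ngp levels are given as a description, and so are all other genes of the same cells.

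The libraries were made from CD45+ leukocytes of the nasal mucosa of C57BL/6 mice aged 8 weeks, with 1 library for each group, so that no difference between groups has a replicate check and no p-value is given. The groups were Vehicle, Vehicle-OVA, Ribavirin and Ribavirin-OVA, where OVA is ovalbumin, the allergen with which the study sensitised mice by injection with alum before challenging the nose, and ribavirin is an antiviral drug. In all groups hyaluronidase, DNase I and collagenase I were used to digest the tissue, and the cells were enriched for CD45 by magnetic beads according to the sample labels (the series text names fluorescence-activated sorting). The dose and schedule of ribavirin and the number of mice behind a library are not given in the sources used here. The libraries held 91742940 to 171873110 UMIs, with a median of 3389 to 4952 UMIs in the deposited cells. Small cells were missing from the Ribavirin library, whose smallest Cd3e-positive T cell had 1792 UMIs against 504 to 572 in the other libraries.

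Neutrophils load their granules in a fixed sequence while they mature in the bone marrow. Promyelocytes make the primary (azurophil) granule proteins such as myeloperoxidase and elastase, myelocytes and metamyelocytes make the secondary (specific) granule proteins lactoferrin (Ltf), cathelicidin (Camp), neutrophilic granule protein (Ngp) and lipocalin 2 (Lcn2), and band cells make the gelatinase (tertiary) granule proteins such as Mmp9. Division stops at about the stage at which secondary granule genes are expressed, under the control of the transcription factor C/EBP epsilon (Cebpe), and mature neutrophils then switch these genes off and display the chemokine receptor Cxcr2. Lactoferrin and lipocalin 2 are also secreted by glands and epithelia of the airway.

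The marker genes of the members are shown by their upstream sequence, since 5 of the 6 share a mark there that the rule did not use. RefSeq promoter sequences (GRCm38.p6) were searched over the 250 bases before each gene's start for TTGCNNAA, a form of the element bound by C/EBP factors, on both strands. It was found for 5 of the 6 marker genes (Ltf, Ngp, Lcn2, Mmp8 and Retnlg), against 9.56% (3142 of 32851) of all promoters of the same length, and it was not found for Camp. The stricter palindrome TTGCGCAA, which is contained in that motif, was found in 0 of the 6 genes and in 0.164% of all promoters. The ETS core AGGAAGT was found for Mmp8 alone, against 7.69% of all promoters. These matches are a description of letters and not of binding. For Camp, Ltf, Ngp and Lcn2 an annotated exon of the gene begins within the 250 bases, for Lcn2 at their far end. The Lcn2 match and the Ngp match at 11 bases therefore lie past an annotated exon start. Camp and Lcn2 are not shown. Stretches upstream of 4 of the genes follow, 5′ to 3′ on the strand of the gene, ending before the first annotated exon, with the C/EBP matches in capitals. They lie at chr9:111019042-111019270 (Ltf, plus strand, match beginning 75 bases before the start), chr9:110419558-110419746 (Ngp, plus strand, 138 bases, with another match at 11 bases outside the stretch shown), chr9:7558179-7558428 (Mmp8, plus strand, 19 bases) and chr16:48872358-48872607 (Retnlg, plus strand, 246 bases).
Ltf: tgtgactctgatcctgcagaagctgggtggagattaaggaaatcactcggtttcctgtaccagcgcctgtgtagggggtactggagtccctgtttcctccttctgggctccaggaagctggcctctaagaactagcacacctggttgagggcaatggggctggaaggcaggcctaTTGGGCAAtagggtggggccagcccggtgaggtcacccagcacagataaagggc
Ngp: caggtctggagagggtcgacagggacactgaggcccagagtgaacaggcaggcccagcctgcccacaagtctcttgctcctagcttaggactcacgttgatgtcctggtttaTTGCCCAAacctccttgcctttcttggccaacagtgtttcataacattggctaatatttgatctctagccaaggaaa
Mmp8: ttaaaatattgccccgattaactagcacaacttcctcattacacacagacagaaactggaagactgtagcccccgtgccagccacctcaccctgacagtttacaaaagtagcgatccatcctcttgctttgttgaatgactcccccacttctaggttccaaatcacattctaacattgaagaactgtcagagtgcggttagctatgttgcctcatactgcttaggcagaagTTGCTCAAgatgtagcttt
Retnlg: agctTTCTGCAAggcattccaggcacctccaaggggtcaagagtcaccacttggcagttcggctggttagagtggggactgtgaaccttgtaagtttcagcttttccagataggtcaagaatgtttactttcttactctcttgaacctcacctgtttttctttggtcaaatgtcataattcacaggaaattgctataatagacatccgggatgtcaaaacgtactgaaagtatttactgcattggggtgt

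To check the label of immature neutrophils, S100a8 and S100a9 were measured in each member, since the transcripts of these calcium-binding proteins are usually abundant in neutrophils. The members fell into separate classes. In 383 members the 2 genes made up at least 1% of the UMIs (2.52% to 44.0% per cell) with fewer than 3 UMIs of the epithelial genes Epcam, Krt8 and Krt18. These S100-rich members numbered 53, 80, 121 and 129 in library order. In 51 members (4, 6, 20 and 21 in the same order) S100a8 and S100a9 were under 1% of UMIs, and no member lay between 0.5% and 1%. The remaining 9 members (1, 0, 8 and 0) had both S100 and at least 3 epithelial UMIs and are called mixed. The limits of 1% and of 3 UMIs were set after the data were seen.

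**Figure D1:**
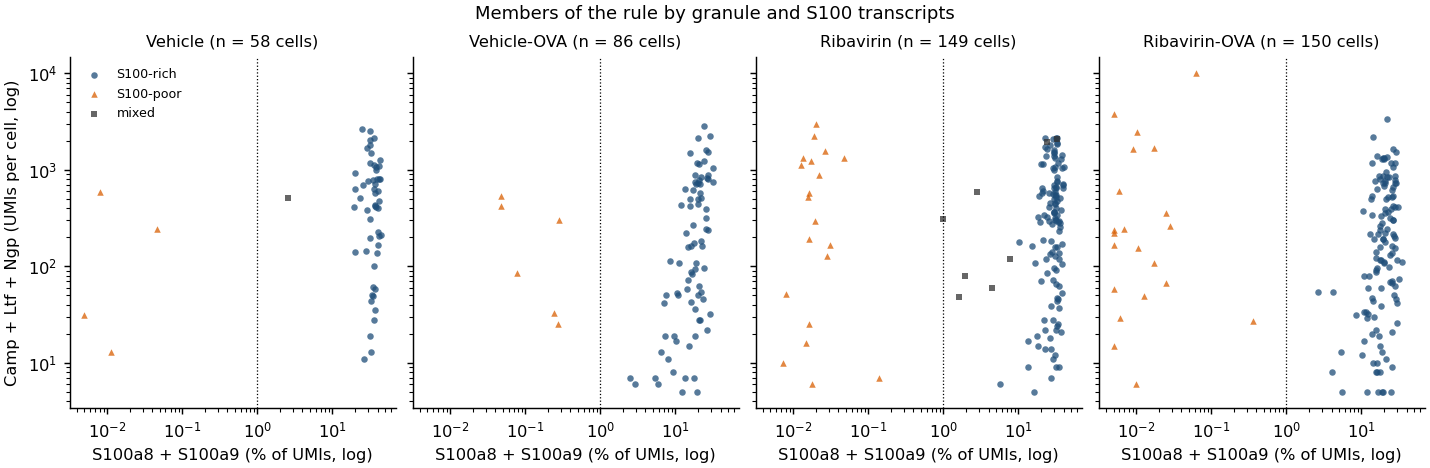
Each point is 1 member, with its S100a8 and S100a9 share of UMIs (%, log axis) against its Camp, Ltf and Ngp UMIs (log axis), 1 panel for each library and 1 symbol for each class. Values of 0 are drawn at 0.005, the dotted line marks 1%, and the 51 S100-poor members lie well to the left of the 383 S100-rich members.

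The S100-poor members go against the label. Ltf made up 97.6% to 99.9% of their Camp, Ltf and Ngp UMIs, and 48 of the 51 cells had at least 3 epithelial UMIs. Their most abundant transcripts included Wfdc18, Bpifa1, Reg3g, Obp1a and Obp1b, which encode secreted proteins of airway and nasal glands or odorant-binding proteins, and Pigr, which encodes the epithelial carrier of secreted antibodies. Epcam was at 1170, 719, 702 and 624 CPM (counts of a gene per 1000000 UMIs of the population) in the 4 libraries, while Csf3r, the receptor for granulocyte colony-stimulating factor, had 0, 4, 5 and 17 UMIs in all S100-poor members of a library. Ltf was also high in Epcam cells outside the rule, at 3757, 14525, 7212 and 8487 CPM in the same order, where Camp was at 1.3 to 7.6 CPM. The S100-poor members were large, with a median of 37830 UMIs in Ribavirin and 41040 in Ribavirin-OVA against 7292 and 6203 in the S100-rich members. They therefore supplied 8.22% and 12.6% of all member UMIs in Vehicle and Vehicle-OVA but 47.1% and 49.3% in Ribavirin and Ribavirin-OVA. Results on gene levels are given for the S100-rich members, with the values over all members where they differ.

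Of the marker genes of the label that neither the rule nor the S100 limit used, Retnlg and Lcn2 were among the 10 most abundant transcripts of the S100-rich members. S100a9, S100a8, Ngp, Camp and Ltf, which were among them too, had been used to choose these cells. The primary granule genes Mpo (0 to 30.2 CPM) and Elane (0 to 47.4 CPM) were near or at 0, and Prtn3 (175, 132, 25.8 and 7.82 CPM in the 4 libraries) came to 76.7% and 92.4% from 1 cell each in Vehicle and Vehicle-OVA. Only 7 of the 443 members had at least 3 primary granule UMIs. Markers of other leukocytes were low. Summed over the T and NK cell list (11 genes) they came to 15.8 to 36.7 CPM, over the eosinophil markers (10 genes) to 12.9 to 46.9 CPM with Epx and Prg3 at 0 in every library, over the macrophage markers (10 genes) to 183 to 273 CPM with the C1q genes at 0 by the rule, over the B and plasma cell markers (8 genes) to 48.9 to 193 CPM with Pax5 at 0, and over the dendritic cell markers (10 genes) to 116 to 301 CPM. Mast cell and basophil markers (10 genes) summed to 10.2 to 21.2 CPM. Of the erythroid and marrow progenitor markers (14 genes, 22.4 to 31.3 CPM) the haemoglobin genes Hbb-bs, Hbb-bt, Hba-a1 and Hba-a2 had no UMI in any library. The monocyte markers (9 genes) summed to 1326 to 1540 CPM, most of it Ly6c2 (981 to 1183 CPM), which immature neutrophils also express. The epithelial and stromal markers (10 genes) summed to 20.4, 38.8, 121 and 264 CPM in library order, higher in the ribavirin libraries, and most of it was Bpifa1 (8.14, 12.9, 97.4 and 197 CPM).

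How many cells the rule let through depended on the number of granule genes detected and on the barred genes. Of 2205 cells with at least 5 Camp, Ltf and Ngp UMIs, 1207 had at least 2 of the genes detected. Of these 1207 cells, 712 carried a UMI of C1qa, C1qb, C1qc, Cd3e, Cd79a or Siglech. Siglecf was carried by 76 and at least 2 Csf3 UMIs by 78 (a cell can be in several of these). Of the S100-rich cells that met the other conditions, 383 had none of the barred UMIs, 205 had exactly 1, 62 had 2, 13 had 3 to 5 and 28 had more than 5. Allowing 1 barred UMI raised the S100-rich cells to 73, 122, 184 and 209 in the 4 libraries, with the same order of the shares. Scrublet's procedure marked 2 of the 443 members as doublets, but it marked 0.817% to 5.64% of the cells of a library against expected rates of 3.53% to 10.3%, and the part of unmarked doublets was not tested. The barcodes of 6 members also occurred in another library, none of them as a member there.

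To ask how common these cells were in each group, they were counted as a share of all cells kept. In library order, S100-rich members made up 0.206% (95% interval 0.154 to 0.269), 0.457% (0.363 to 0.569), 0.597% (0.495 to 0.713) and 1.46% (1.22 to 1.74) of the cells. Their share was thus lowest in Vehicle and highest in Ribavirin-OVA, while the intervals of Vehicle-OVA and Ribavirin overlapped. The share was 2.22 times as high (1.55 to 3.20) in Vehicle-OVA as in Vehicle and 2.45 times as high (1.90 to 3.17) in Ribavirin-OVA as in Ribavirin. Between the drug arms it was 2.90 times as high (2.08 to 4.08) in Ribavirin as in Vehicle and 3.20 times as high (2.40 to 4.28) in Ribavirin-OVA as in Vehicle-OVA. All intervals here are exact and cover counting error only, not the spread between mice. Over all 443 members the shares were 0.225%, 0.491%, 0.735% and 1.70%, with the same order. The S100-poor members made up 0.0155%, 0.0343%, 0.0986% and 0.238%, so that they followed the same order and were 6.34 times (2.13 to 25.5) as frequent in Ribavirin as in Vehicle.

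As a share of neutrophil-gated cells the picture was different. Among neutrophil-gated cells (at least 3 S100a8 and S100a9 UMIs, at least 1 Csf3r UMI and none of the barred genes, plus the members), S100-rich members made up 1.11% (0.831 to 1.45), 1.02% (0.809 to 1.27), 2.53% (2.10 to 3.01) and 7.72% (6.49 to 9.11) in library order. The ratio of Vehicle-OVA to Vehicle was 0.920 (0.642 to 1.33), whose interval includes 1, while that of Ribavirin-OVA to Ribavirin was 3.06 (2.37 to 3.95). The gated cells numbered 4783, 7849, 4791 and 1670, of 25727, 17498, 20278 and 8817 cells kept. Both denominators lack small cells in Ribavirin. Its smallest Cxcr2 neutrophil (defined below) had 1783 UMIs, against 500 to 516 in the other libraries. The median was 2079.5 UMIs in Vehicle, and the part of missing small cells in the shares and ratios with Ribavirin was not tested. When each cell was first thinned to 1000 UMIs and the rule applied to the thinned cells, 0.311%, 0.617%, 0.937% and 2.20% of cells met it, in the same order as without thinning.

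**Figure D2:**
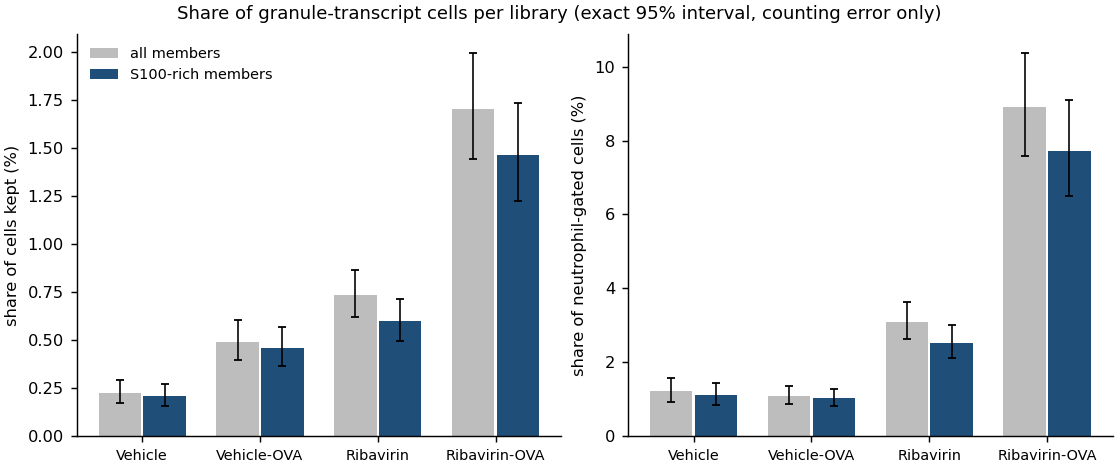
Bars give the share (%) of members among all cells kept (left) and among neutrophil-gated cells (right) in each of the 4 libraries, in grey for all members and in blue for S100-rich members, with exact 95% intervals that cover counting error. The S100-rich share of cells kept goes from 0.206% in Vehicle to 1.46% in Ribavirin-OVA, and that of gated cells is about level in the vehicle libraries and reaches 7.72% in Ribavirin-OVA.

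The 3 genes of the rule differed in how evenly the libraries carried them. Ngp was at 32959, 27417, 28434 and 28181 CPM in the S100-rich members and was detected in all 383 cells. Camp, the precursor of the antimicrobial peptide cathelicidin, was at 31534, 11368, 25475 and 15520 CPM, lower in both OVA libraries. Ltf, the iron-binding lactoferrin, was at 7638, 9941, 8923 and 11572 CPM, higher in both OVA libraries. Camp was missing from 35 of the S100-rich cells, 14 of them in Vehicle-OVA and 16 in Ribavirin-OVA, and Ltf from 35, 14 of them in Ribavirin. At a common depth of 1000 UMIs per cell, Camp was detected in 92.5%, 68.8%, 86.0% and 78.0% of S100-rich members, and in 100%, 82.5%, 95.9% and 87.6% without thinning (median 6203 to 7718 UMIs). In Cd3e-positive T cells, which should lack these genes, Camp was detected in 0.293% to 1.60% after thinning to 1000 UMIs, Ngp in 0.399% to 2.79% and Ltf in 1.44% to 9.07%. Without thinning, at median depths of 4357 to 5467 UMIs, Camp was detected in 1.24% to 6.55% and Ngp in 1.03% to 10.4%. Ltf was then detected in 5.19%, 19.2%, 20.6% and 35.3% in library order, so that the background differed between libraries. The rule required these genes in members, so the shares in T cells are given only as the background level.

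The other marker genes of the label were not counted by the rule. Lcn2, which binds bacterial siderophores, was at 13298, 11905, 11589 and 9697 CPM in the S100-rich members. Mmp8, a collagenase, was at 1991, 2361, 2564 and 4670 CPM, highest in Ribavirin-OVA, and Retnlg, a resistin-like protein of neutrophils, was at 13640, 10474, 16762 and 19871 CPM. In Cxcr2 neutrophils (9291 cells with Cxcr2, Csf3r and at least 3 S100a8 and S100a9 UMIs, without Siglecf and with at most 1 Camp, Ltf and Ngp UMI) Lcn2 was at 607, 1822, 702 and 686 CPM and Mmp8 at 214, 596, 230 and 407 CPM. Lcn2 in members was therefore 21.9, 6.53, 16.5 and 14.1 times as high as in Cxcr2 neutrophils of the same library, Mmp8 9.32, 3.96, 11.1 and 11.5 times, and Retnlg 9.83, 2.38, 8.27 and 7.42 times. The smallest ratio of each gene was that of Vehicle-OVA, whose Cxcr2 neutrophils had the highest levels of Lcn2 (1822 CPM), Mmp8 (596 CPM) and Retnlg (4401 CPM). In Siglecf neutrophils, the 3831 neutrophils with a Siglecf UMI, Lcn2 was at 125 to 560 CPM and Retnlg at 136 to 1020 CPM.

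To see how other genes went with the amount of granule transcript, S100-rich cells were split by their Camp, Ltf and Ngp UMIs into bins of 5 to 9 (26 cells), 10 to 49 (66 cells), 50 to under 200 (86 cells) and 200 or more (205 cells), beside 207 cells with 2 to 4 UMIs that lay just outside the rule. Values here are means over the libraries with at least 5 cells in a bin (3 libraries for 5 to 9 UMIs and 4 for the others), and deeper cells fall more easily into higher bins. The libraries filled the bins unevenly. The bin of 200 or more held 37 of 53, 36 of 80, 72 of 121 and 60 of 129 S100-rich members in library order, and of the 207 cells just outside 109 were in Vehicle-OVA.

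Lcn2, Chil3, Fcnb and Cybb, which the rule did not count, were highest in the top bin. Lcn2 was at 1661 CPM just outside the rule, 3078 just inside it, and 5922, 8272 and 13493 CPM in the bins above. Chil3, a chitinase-like protein, was at 59.2 CPM just inside and 4239 CPM in the top bin, Fcnb (ficolin B) at 0 and 244 CPM, and Cybb, the catalytic subunit of the NADPH oxidase, at 230 and 2574 CPM. Cebpe, the transcription factor of the secondary granule stage, was at 7.7 CPM just inside the rule and 311 CPM in the top bin. Retnlg and Mmp8 had another course. Retnlg was at 8018 CPM just outside, 24461 CPM just inside, 41494 CPM at 10 to 49 UMIs, 34343 CPM at 50 to under 200 UMIs and 8051 CPM in the top bin. Mmp8 was at 711, 3593, 4212, 4651 and 2433 CPM in the same order, so that both genes were highest in cells with moderate granule transcript.

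Genes of mature neutrophils went the other way. Il1b, which encodes the cytokine interleukin 1 beta, was at 13775 CPM just outside the rule and 9872, 4197, 2671 and 905 CPM in the bins above. Cxcl2, a chemokine that draws neutrophils, was at 18596 CPM just outside and 1699 CPM in the top bin. Csf3r was at 1580 CPM just outside the rule and 1212, 843, 542 and 238 CPM from the lowest to the highest bin inside it. Cxcr2 was at 1604 CPM just outside, 2334 CPM just inside and 607 CPM in the top bin, and Srgn, the proteoglycan core of granules, at 9545 and 1580 CPM just outside and in the top bin. The cells just inside the rule were thus closer to the cells just outside it than to the top bin in Il1b, Cxcl2, Csf3r, Chil3 and Cebpe.

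**Figure D3:**
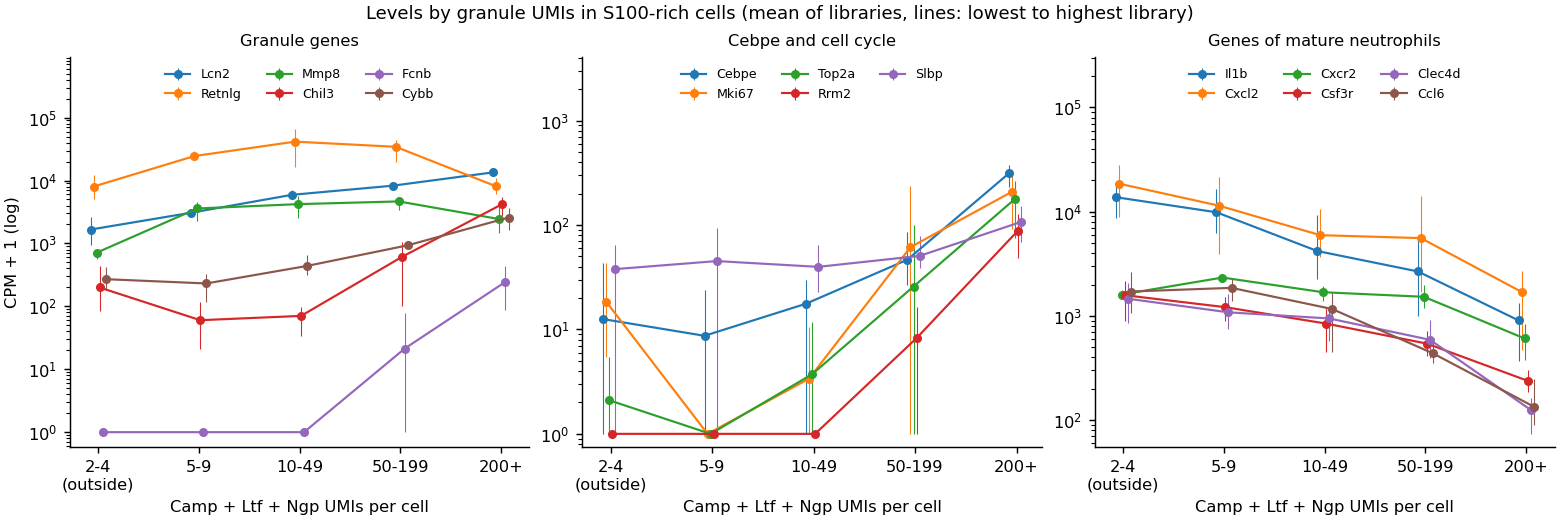
Points give the level of a gene (CPM + 1, log axis) in S100-rich cells by the number of Camp, Ltf and Ngp UMIs per cell, as the mean of libraries with at least 5 cells, with lines from the lowest to the highest library. Lcn2, Chil3, Fcnb, Cybb and Cebpe are highest at 200 UMIs or more, Retnlg and Mmp8 are highest in between, and the genes of mature neutrophils are lowest at 200 UMIs or more.

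To place the members beside mature neutrophils of the same tissue, S100-rich members were compared with Cxcr2 neutrophils in each library. A gene was called where the ratio of CPM + 10 was at least 2-fold with an exact 95% interval excluding 1, here in all 4 libraries. Of 4813 genes tested, 168 were higher (3.49%) and 410 lower (8.52%), and the median log2 ratio of all genes was -0.23. Over all 443 members 168 of 5730 genes were higher (2.93%) and 425 lower (7.42%), with the epithelial genes Pigr, Cyp2f2 and Cyp2a5 among the leading genes. The rule chose cells by granule transcripts of these same cells, so that the counts describe the cells and test nothing. The counts of listed genes that follow stand beside 3.49% higher and 8.52% lower of all genes.

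Among the secondary granule genes other than those of the rule, 13 of 16 tested were higher and none was lower, with a median log2 ratio of 3.61. Chil3 was at 4758, 1878, 4323 and 1950 CPM in the S100-rich members, against 34.1, 70.7, 39.7 and 108 CPM in Cxcr2 neutrophils. Cd177, a surface protein of neutrophils that is stored in specific granules, was at 1112, 2170, 1467 and 1887 CPM against 24.2 to 82.9 CPM. Serpinb1a, an inhibitor of the granule proteases, had the largest ratio in its weakest library among the genes outside the rule and was at 672, 559, 574 and 429 CPM against 6.9 to 15.2 CPM. Cybb was at 1503, 2263, 1622 and 2514 CPM against 103 to 140 CPM. It was the one called gene of the 7 NADPH oxidase subunits, and Cyba, its partner in the membrane, was 1.74 to 2.45 times as high. Other leading genes were Adpgk, a glucokinase that uses ADP, Itgb2l, a beta 2-like integrin, Ifitm6, Lta4h, which makes leukotriene B4, Mgst2, Aldh2 and Anxa1. The gelatinase and secretory vesicle genes were divided, with 4 of 10 higher (Mmp8, Retnlg, Padi4 and Ly6g) and 2 lower (Slc11a1 and Cd14). Mmp8 was counted in this list, although the collagenase is classically a protein of the specific granules.

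Of the transcription factors, Cebpe was higher and 6 of 11 were lower. Cebpe was at 257, 161, 267 and 240 CPM in members against 3.05 to 9.38 CPM in Cxcr2 neutrophils. The 6 lower factors were Cebpb, Klf4, Junb, Runx1, Rara and Egr1, of which Cebpb, the factor of emergency granulopoiesis, was 0.249 to 0.426 times as high. Among the cell cycle genes of G2 and M phase only 3 had enough UMIs for this comparison, and Mki67 and Top2a were called higher.

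Effector and receptor genes were lower in members. Of the inflammatory mediators 13 of 16 were lower and none higher (median log2 ratio -2.42), and Il1b in members was at 1360, 3525, 1544 and 1207 CPM against 18720, 19530, 19919 and 15846 CPM. Ptgs2, the cyclooxygenase of inflammation, was at 138, 500, 157 and 165 CPM against 1867, 3883, 2191 and 2788 CPM. Fgl2, Sirpb1c, Marcks, Gbp2, Dusp2, Steap4, Maff and Gadd45b were the other leading lower genes with Ppp1r15a, Clec4n and H2-Q10. Of the monocyte markers 4 of 6 were lower in members (Ccr2, Fn1, Csf1r and Ms4a6c) and Ly6c2 was higher. Apoe of the macrophage markers and Cd74 of the dendritic cell markers were lower too. The part of such transcripts in the comparison cells was not tested. Of the interferon-stimulated genes 10 of 20 were lower and none higher, for example Isg15 at 181, 109, 129 and 59.2 CPM against 1090, 476, 995 and 405 CPM. Of the homing and retention receptors 5 of 13 were lower (Cxcr4, Ccr1, Itga4, Cd44 and Cxcr1) and Ltb4r1, the receptor of leukotriene B4, was higher (2.17 to 4.04 times). Cxcr4, which holds immature neutrophils in the marrow, was at 157, 183, 125 and 232 CPM against 1039, 724, 712 and 1135 CPM. Cxcr2 was used to choose the comparison cells. The mature neutrophil list had 11 of 20 genes lower, and S100a8 and S100a9 were higher, S100a8 by 3.44 to 5.84 times. The S100-rich members were chosen by their share of S100a8 and S100a9, so that this excess follows in part from the choice of cells. Over all members, chosen without the S100 limit, S100a8 was called higher and S100a9 was not. Of 15 genes induced by tissue dissociation 9 were lower (summed 8236 to 15263 CPM against 31792 to 50817 CPM for the dissociation stress list), and the part of digestion in these differences was not tested.

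**Figure D4:**
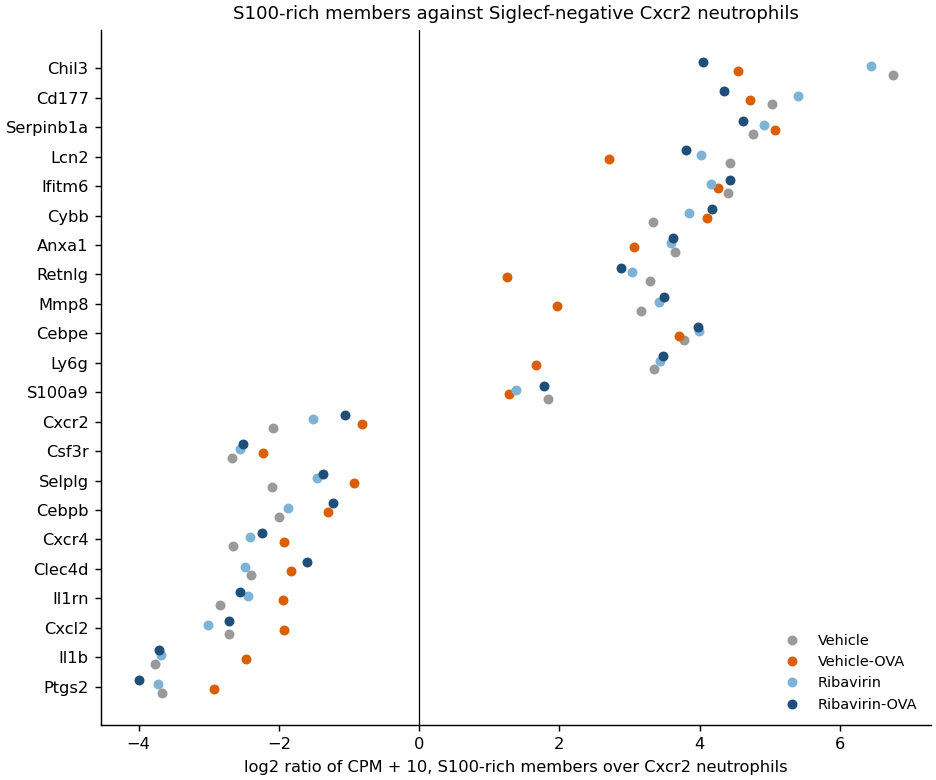
Points give the log2 ratio of CPM + 10 of S100-rich members over Cxcr2 neutrophils for named genes, 1 point for each of the 4 libraries. Granule genes and Cebpe lie to the right of 0 in every library, and Il1b, Cxcl2, Cxcr4 and Csf3r lie to the left. Cxcr2 and Csf3r were required of the comparison cells and S100a9 helped to choose the S100-rich members, so that their positions follow in part from the choice of cells.

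Cells that had primary granule transcripts were a separate and rarer set. The 21 cells with at least 3 UMIs of Mpo, Elane and Prtn3 together, with 2 of the genes detected and fewer than 5 Camp, Ltf and Ngp UMIs (4, 6, 6 and 5 in the 4 libraries) were low in Camp by that choice, at 0 to 16.7 CPM. Prtn3 was at 2558, 507, 4525 and 1565 CPM in them, and Mki67 at 533, 306, 285 and 887 CPM. Cxcr2, at 0 to 163 CPM, was lower in these cells than in the S100-rich members of each library.

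To ask whether members still expressed genes of division, the 26 genes of the cell cycle G2/M list were summed. In library order they came to 1421, 460, 1611 and 566 CPM in the S100-rich members, against 142, 83.2, 94.0 and 125 CPM in Cxcr2 neutrophils. The sum was lower in both OVA libraries than in their counterparts without OVA. In the bin of 200 or more granule UMIs it was 1696, 682, 2023 and 879 CPM, so that the order held among the cells with most granule transcript. At 1000 UMIs per cell a UMI of Mki67 or Top2a was found in 11.3% (4.27 to 23.0), 3.896% (0.811 to 10.97), 14.0% (8.40 to 21.5) and 1.63% (0.198 to 5.75) of S100-rich members, and unthinned in 20.8%, 11.2%, 20.7% and 5.43%. In Cxcr2 neutrophils the thinned shares were 1.09% to 1.95% and in T cells 8.08% to 10.8%. The intervals of Vehicle and Vehicle-OVA overlap, and those of Ribavirin and Ribavirin-OVA do not. The shares of Vehicle-OVA and Ribavirin-OVA have intervals that reach the level of Cxcr2 neutrophils. Of the G2/M genes with enough UMIs, 5 of 6 were lower in Vehicle-OVA than in Vehicle and 9 of 15 were lower in Ribavirin-OVA than in Ribavirin, against 3.38% and 3.76% of all genes tested in these pairs (a gene is called lower at a ratio of CPM + 10 of at least 2-fold with a 95% interval excluding 1). Top2a, which untangles DNA, was at 181, 48.9, 212 and 94.96 CPM, and Mki67, the proliferation marker Ki-67, at 200, 121, 270 and 58.1 CPM. Both genes were lowest in an OVA library, and they rested on few cells, since 9 of 80 members had Mki67 in Vehicle-OVA and 7 of 129 in Ribavirin-OVA, with 48.8% and 44.2% of its UMIs in 1 cell. Over all members the log2 ratio of the sum was -1.64 in the vehicle pair and -1.42 in the ribavirin pair, and it came to -0.49 and -0.60 when 1 barred UMI was allowed, an alternative chosen after the data were seen. With mitochondrial UMIs under 5% the ribavirin pair came to -0.78, and with at least 3 Camp, Ltf and Ngp UMIs to -0.19.

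To compare the groups gene by gene, S100-rich members were set against each other in 4 pairs of libraries, with the same limits on genes having at least 50 UMIs over a pair. In Vehicle-OVA over Vehicle 462 of 2571 genes were higher (18.0%) and 87 lower (3.38%). In Ribavirin-OVA over Ribavirin 236 of 3613 were higher (6.53%) and 136 lower (3.76%). Ribavirin over Vehicle gave 66 called genes of 2849 in either direction (2.32%), and Ribavirin-OVA over Vehicle-OVA gave 222 of 3356 (6.62%). Over all members these shares were 17.4% higher and 4.16% lower, 7.08% higher and 1.69% lower, 10.3% and 13.6%, so that the pairs across drug arms had fewer called genes without the S100-poor and mixed cells (66 against 494, and 222 against 748). The median log2 ratios of all genes were 0.42, 0.30, 0.11 and 0.07 in the S100-rich members. The pairs share libraries, and a call says that 2 libraries differed beyond counting error and not that the conditions did.

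Inflammatory mediators were mostly higher with OVA in the vehicle arm. In Vehicle-OVA over Vehicle 13 of 16 were higher (median log2 ratio 1.79, against 0.42 for all genes), in Ribavirin-OVA over Ribavirin none of 15 was higher and 2 were lower (-0.35, against 0.30), and in Ribavirin-OVA over Vehicle-OVA 13 of 16 were lower (-1.69, against 0.07). Il1b was at 1360, 3525, 1544 and 1207 CPM in library order. Il1rn, the antagonist of the interleukin 1 receptor, was at 95.7, 1143, 207 and 337 CPM, and Ccl3, a chemokine for leukocytes, at 79.4, 1123, 143 and 264 CPM. Cxcl3, a ligand of Cxcr2, was at 4.07, 599.6, 95.4 and 23.5 CPM, from 2 UMIs in Vehicle. Each of these genes was highest in Vehicle-OVA, although 1 cell held 73.7% of the Ccl3 UMIs of Ribavirin-OVA and 53.8% of those of Vehicle. The ratio of Vehicle-OVA to Vehicle was 2.59 (2.38 to 2.83) for Il1b, 11.9 (8.90 to 16.4) for Il1rn, 14.1 (10.3 to 20.04) for Ccl3 and 147 (40.5 to 1220) for Cxcl3. Nos2, the inducible nitric oxide synthase, was at 4.07, 175, 1.99 and 4.47 CPM, and 25 of 80 members had it in Vehicle-OVA against 2 of 53 in Vehicle.

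The same direction was found in other cells of the Vehicle-OVA library. The inflammatory mediators summed to 5072, 18935, 6792 and 6118 CPM in S100-rich members and to 41397, 81404, 56003 and 45860 CPM in Cxcr2 neutrophils. In T cells (Cd3e) they summed to 2727, 11495, 3572 and 3010 CPM, highest in Vehicle-OVA too, and the part of free RNA in the members was not tested. In members the summed level also went with granule UMIs. In the bin of 200 or more it was 4973, 6871, 5078 and 2507 CPM, and in the bin of 50 to under 200 it was 3751, 38998, 11194 and 6325 CPM, the Vehicle value there coming from 9 cells. Vehicle-OVA was highest in both bins.

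**Figure D5:**
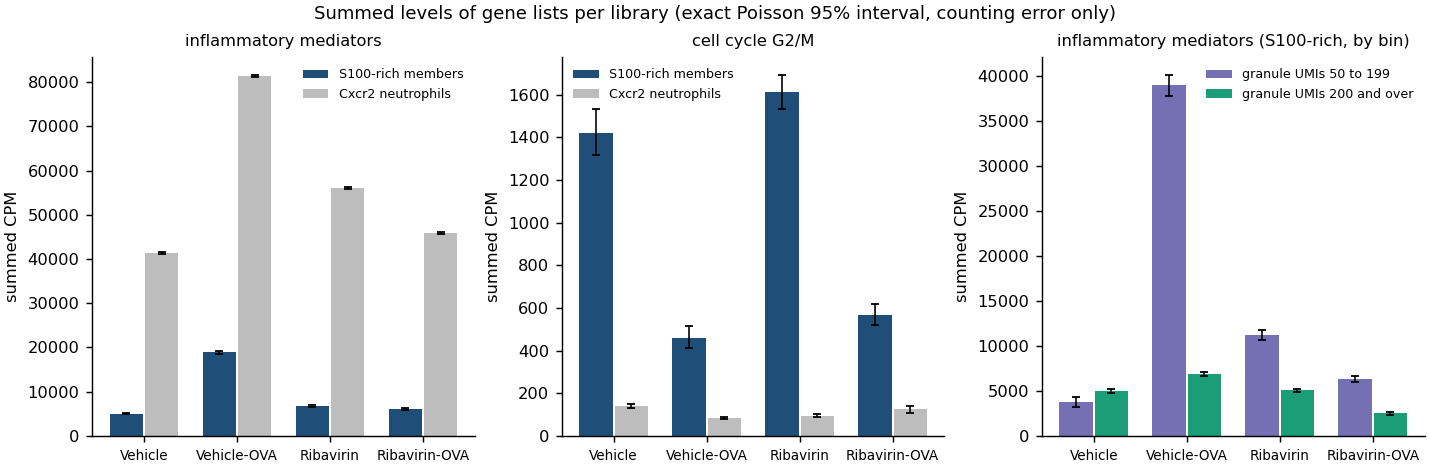
Bars give the summed CPM of the inflammatory mediators (left) and of the G2/M genes (middle) in S100-rich members and Cxcr2 neutrophils of the 4 libraries, and of the inflammatory mediators in S100-rich members by granule UMIs (right), with exact Poisson 95% intervals that cover counting error. The mediators are highest in Vehicle-OVA in both populations, at 18935 and 81404 CPM, and the G2/M genes in members are lower in both OVA libraries.

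Of the secondary granule genes 3 of 17 were lower with OVA in each arm, against 3.38% and 3.76% of all genes, and none was higher, against 18.0% and 6.53%. The median log2 ratios of the list were -0.26 in the vehicle pair and -0.24 in the ribavirin pair, against 0.42 and 0.30 for all genes. Chil3 and Fcnb were lower in both, with Lyz2 in the vehicle pair and Orm1 in the ribavirin pair. Chil3 was 0.395 (0.368 to 0.422) times as high in Vehicle-OVA as in Vehicle and 0.451 (0.426 to 0.477) times in Ribavirin-OVA as in Ribavirin. Fcnb was at 369, 139, 193 and 53.6 CPM. Lyz2 (lysozyme) was at 8102, 3570, 8065 and 4515 CPM. Camp, which is not in this list, was 0.361 (0.351 to 0.370) times as high in Vehicle-OVA as in Vehicle. The rule counted Camp, so that this ratio only describes the cells that it let through. Of the tertiary granule genes 4 of 11 were higher in Vehicle-OVA than in Vehicle (Adam8, Fpr1, Fpr2 and Cd14), against 18.0% of all genes. In Ribavirin-OVA over Ribavirin 3 of 11 were higher (Padi4, Fpr2 and Mmp25), against 6.53%, and 1 was lower (Cd14), against 3.76%. Fpr2, a formyl peptide receptor, was the one called higher in both, at 346, 932, 391 and 1079 CPM. Padi4, which citrullinates histones, was at 65.2, 106, 77.5 and 182 CPM, and Mmp9 at 1486, 1965, 1929 and 3358 CPM, which was not called in either pair. The primary granule list had no called gene in either OVA pair, with only 3 genes tested in the vehicle pair and 1 in the ribavirin pair.

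Of the mature neutrophil genes 8 of 20 were higher and 1 lower in Vehicle-OVA over Vehicle (median log2 ratio 0.91, against 0.42 for all genes), and none was called in Ribavirin-OVA over Ribavirin (0.05, against 0.30). Of all genes 18.0% were higher and 3.38% lower in the vehicle pair, and 6.53% and 3.76% in the ribavirin pair. Csf3r was at 263, 453, 290 and 538 CPM and Cxcr2 at 521, 1116, 734 and 1261 CPM, higher in both OVA libraries. Of the homing and retention receptors 4 of 11 were higher in Vehicle-OVA over Vehicle and none of 12 in Ribavirin-OVA over Ribavirin, against 18.0% and 6.53% of all genes. Of the interferon-stimulated genes 2 of 14 were higher and 1 lower in the vehicle pair, and 2 of 13 were lower in the ribavirin pair (all genes lower: 3.38% and 3.76%). The median log2 ratios of this list were 0.19 and 0.17, and the share higher in the vehicle pair was below the 18.0% of all genes. None of the 7 NADPH oxidase subunits was called in any of the 4 pairs, in which 2.32% to 21.4% of all genes were called in either direction. Of the dissociation stress genes 6 of 16 were higher in the vehicle pair and 1 of 15 (Dusp1) in the ribavirin pair, against 18.0% and 6.53% of all genes. The dissociation stress list summed to 8236, 14803, 9933 and 15263 CPM.

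Among single genes, those with the largest ratios in Vehicle-OVA over Vehicle were Cxcl3, Nos2 and Ccl3, with Bpifb3, Hspa1a and Scgb1c1, of which 1 cell each held 99.2%, 78.9% and 89.7% of the UMIs. The lowest were the histone genes Hist1h1e (271 to 24.4 CPM) and Hist1h4d (177 to 33.1 CPM), Ube2c and H2afx, with Cxcl10 and AW112010. Ube2c, which drives the exit from mitosis, was at 110 and 12.9 CPM. In Vehicle 1 cell each held 44.4% of the Ube2c, 63.8% of the Cxcl10 and 44.7% of the AW112010 UMIs. Histone genes led the lower side of Ribavirin-OVA over Ribavirin as well, with Hist1h1b at 426 and 27.9 CPM, Hist1h1e at 308 and 35.8 CPM, Hist1h4d at 231 and 27.9 CPM and Hist1h3c at 91.5 and 8.94 CPM in Ribavirin and Ribavirin-OVA, beside Birc5 (survivin) and Mup5. In Cxcr2 neutrophils Hist1h1b was at 5.88 and 1.06 CPM in the same libraries. Higher in Ribavirin-OVA than in Ribavirin were Chil4, a chitinase-like protein of the airway (105 against 1.99 CPM), Zfp36l2 (589.9 against 157 CPM), Rnf8, Dusp1 (2660 against 849 CPM), Mir142hg and Samd8. Chil4 was higher in Cxcr2 neutrophils of the same pair too, at 196 against 4.76 CPM.

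On the higher side of both pairs across the drug arms, the leading genes included odorant-binding proteins. Higher in Ribavirin than in Vehicle were Obp1a (910 against 44.8 CPM), Obp1b (762 against 20.4 CPM), Obp2a, Mup5, Gm14744 and Gm6619, and the odorant-binding proteins led Ribavirin-OVA over Vehicle-OVA too (Obp1a 687 against 10.1 CPM), with Bpifa1 (197 against 12.9 CPM) and 5430402E10Rik. In Cxcr2 neutrophils Obp1a was at 2152 against 166 CPM and at 768 against 23.3 CPM in these pairs, so that Cxcr2 neutrophils differed in the same direction. In the members of Ribavirin-OVA, 1 cell each held 49.4% of the Obp1a, 54.3% of the Obp1b and 67.7% of the 5430402E10Rik UMIs, against 4.55% for Bpifa1. Lower in Ribavirin than in Vehicle were Saa3 (9.94 against 99.8 CPM), Prtn3, Cxcl10, Ifitm1 (290 against 992 CPM), AW112010 and Lipg. In this order, 1 cell each held 61.2%, 76.7%, 63.8%, 29.0%, 44.7% and 34.3% of their UMIs in Vehicle. Lower in Ribavirin-OVA than in Vehicle-OVA were Cxcl3, Nos2, Saa3 (13.4 against 265 CPM), Hilpda (25.7 against 308 CPM), Bpifb3 and Hspa1a. Of the last 2, 1 cell each held 99.2% and 78.9% of the UMIs in Vehicle-OVA. Apart from these, 4 of 15 inflammatory mediators were higher in Ribavirin than in Vehicle, against 1.93% of all genes. They were Il1a (93.4 against 26.5 CPM), Il1rn, Tnf and Cxcl3. Most of the Il1a UMIs of Ribavirin came from 1 cell, and Cxcl3 was detected in 2 of 53 members in Vehicle.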

How the data were processed

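Per the labels, CD45+ cells of the nasal mucosa were profiled by 10x single-cell RNA-seq. The deposited values are raw UMI counts per gene and cell, which the authors made with Cell Ranger 5.0.0 on mm10 according to the submitters' processing notes, over 27998 genes in 4 libraries of 10311 to 28277 cells. Libraries were assigned to groups from the labels, with 1 library per group, so no test between groups was possible. Cells with at least 500 UMIs, at least 200 genes and under 10% mitochondrial UMIs were kept. The members and the gene lists were chosen with earlier results of these data known. Counts were summed per library and population and given as CPM with exact Poisson 95% intervals, shares with Clopper-Pearson intervals and ratios with conditional binomial intervals. All intervals cover counting error only. A gene with at least 50 UMIs over both populations was called where the ratio of CPM + 10 was at least 2-fold and the interval excluded 1. For the comparison with Cxcr2 neutrophils the 12 genes with the largest and the 12 with the smallest log2 ratio in the weakest library were named, and for each pair the 6 called genes at each end, leaving out the genes of the rule, Xist, mitochondrial and ribosomal protein genes. Cells were thinned to 1000 UMIs for shares of cells with a UMI. Doublets were marked by a reimplementation of Scrublet's procedure, with an expected rate of 0.4% per 1000 cells, and were kept. Filters, thresholds, the pseudocount and the scaling were varied. The scripts were tested on simulated data. Python 3.11.15, numpy 2.4.6, scipy 1.17.1, pandas 2.3.3, scikit-learn 1.9.0 and matplotlib 3.10.9 were used.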

Additional observations from a re-analysis of the deposited data

Results flagged for a closer look

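In the S100-rich members 2526 genes were tested in both OVA pairs. Of these, 72 were called higher with OVA in both pairs and 40 lower in both. Only 4 were called higher with OVA in the vehicle pair and lower with OVA in the ribavirin pair, and 0 the other way round. The log2 ratio of Il1a was 2.54 in Vehicle-OVA over Vehicle and -1.95 in Ribavirin-OVA over Ribavirin. That of Cxcl3 was 5.44 and -1.66, with 2 UMIs in Vehicle. That of Cd14, the co-receptor for lipopolysaccharide, was 1.63 and -1.20. That of Cdkn1a, an inhibitor of cyclin-dependent kinases that is in none of the gene lists and was named after its values were seen, was 1.39 and -1.29. The difference between the pairs was not tested, since each group is 1 library, and of the Il1a UMIs in Ribavirin 64.9% came from 1 cell.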

How the results depend on the processing

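No paired analysis was possible because the labels give no replicate numbers and each group has 1 library. Of the values that answer a comparison, 124 moved by less than their limit and 18 moved by more under an alternative, and none of the log2 ratios among those 18 changed sign. The log2 ratio of the share of members among neutrophil-gated cells in Vehicle-OVA over Vehicle, whose interval includes no difference, turned from -0.15 to 0.24 with at least 3 Camp, Ltf and Ngp UMIs, 0.08 without the Siglecf and Csf3 limits and 0.05 with 1 barred UMI allowed. The log2 ratio of the summed G2/M genes over all members was -1.64 in Vehicle-OVA over Vehicle, and -1.85 with at least 3 Camp, Ltf and Ngp UMIs, -1.93 without the Siglecf and Csf3 limits and -0.49 with 1 barred UMI allowed. In Ribavirin-OVA over Ribavirin it was -1.42, and -0.78 with mitochondrial UMIs under 5%, -0.19 with at least 3 granule UMIs and -0.60 with 1 barred UMI allowed. The genes called in Vehicle-OVA over Vehicle numbered 659, and 1012 with a minimum of 20 UMIs. Those in Ribavirin-OVA over Ribavirin numbered 582, and 1326 with mitochondrial UMIs under 5%, 1245 with a pseudocount of 1 CPM and 372 in S100-rich members. Those in Ribavirin over Vehicle numbered 494, and 66 in S100-rich members, 171 by the mean of single-cell CPM and 756 by CPM outside 6 abundant neutrophil genes. Those in Ribavirin-OVA over Vehicle-OVA numbered 748, and 236 with mitochondrial UMIs under 5%, 222 in S100-rich members and 339 by the mean of single-cell CPM. The genes higher in members than in Cxcr2 neutrophils numbered 168, and 253 with a pseudocount of 1 CPM and 273 by CPM outside 6 abundant genes. The cause of these shifts was not tested. The alternatives with S100-rich members and with 1 barred UMI were chosen after seeing the data.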
